A study of Mus musculus with 8 samples.

Results

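Fatty acid oxidation, ketogenesis and their regulator PPAR-alpha were examined through 33 genes in whole liver RNA. The set covers the carnitine shuttle, the mitochondrial and peroxisomal beta-oxidation enzymes, the electron transfer flavoprotein, acyl-CoA thioesterases, omega-hydroxylases, a ketone body enzyme and a pair of other PPAR-alpha targets. The genes were chosen by name for their role in the pathway, with earlier results of these data known. All 33 were found among the 56953 gene identifiers of the count files. All 33 also passed the filter on low counts and so stand among the 15669 genes tested.

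The tested livers came from male HSC-PCK1-KO mice, in which Pck1, the gene of cytosolic phosphoenolpyruvate carboxykinase, was knocked out in hepatic stellate cells (4 libraries). The Control livers came from male mice whose genotype is labelled WT (4 libraries). All mice, Control mice included, were fed for 8 weeks on CDHFD, a high-fat diet without choline, and all libraries carry the same batch label. Nothing used here gives the Cre driver or other means of the deletion, the strain or the ages. Hepatic stellate cells store vitamin A and, when the liver is injured, become myofibroblasts that lay down collagen. The diet is used to produce fatty liver with inflammation and fibrosis. The comparison of genotypes asks here whether the transcripts of hepatic fat burning differed between livers that differ in a gene of the stellate cells.

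Liver burns fatty acids mainly in mitochondria, which long-chain fatty acids enter as carnitine esters, and shortens very long and dicarboxylic chains in peroxisomes. Surplus acetyl-CoA is turned into ketone bodies, which the liver exports in fasting. PPAR-alpha, a nuclear receptor for fatty acids that binds DNA as a pair with RXR, activates many of these genes in rodent liver, the Cyp4a and Acot genes among them.

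Library totals ranged from 44695439 to 49477255 counts. Levels are given in CPM, counts scaled for library total and composition, and replicates are listed in the order of their numbers, 1 to 4. Pck1 had 339, 795, 593 and 948 CPM in HSC-PCK1-KO livers and 1002, 2012, 551 and 1028 CPM in Control livers, a log2 fold change of -0.78 (SE 0.44, edgeR adjusted p = 0.9998). The groups overlapped. Hepatocytes express Pck1 themselves, so this level is no check of the deletion in stellate cells. All 10 hepatocyte markers listed were detected, and their summed level ranged from 105600 to 127400 CPM in HSC-PCK1-KO livers and from 109100 to 130300 CPM in Control livers. The 10 markers of activated stellate cells summed to 73.7 to 142 CPM in HSC-PCK1-KO livers and 85.7 to 233 CPM in Control livers. In bulk tissue, fewer cells of a type and less RNA per cell cannot be told apart. The labels do not say whether the libraries are from different animals, and p-values here measure the spread between samples that may share one.

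None of the 33 genes differed between HSC-PCK1-KO and Control livers in the test across all genes. The edgeR adjusted p was 0.9998 for each of them, and none passed the threshold of 0.05, against 0% of all 15669 genes tested, with 0 higher and 0 lower. DESeq2 called 6 genes, none of them a member. At an unadjusted p under 0.05 there was again no member, against 370 of all genes tested (2.36%), of which 160 were higher (1.02%) and 210 lower (1.34%). In no member did the 4 HSC-PCK1-KO values lie entirely above or below the 4 Control values. That happened in 1.53% of all genes tested, with 0.721% of all genes tested having every HSC-PCK1-KO value above every Control value.

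The fold changes were small and mostly above 0. The log2 fold change, HSC-PCK1-KO minus Control, was positive in 28 members (84.8%) and negative in 5, with a median of 0.10. Over all genes tested 48.2% were positive and the median was -0.0055, and over the 7835 genes with a mean of at least 10 CPM 50.9% were positive and the median was 0.0017. The members were chosen with earlier results of these data known. Their values rest on the same 8 libraries and are not independent, so this count is a description. It moved to 21 positive members without Control replicate 2 and to 31 when HSC-PCK1-KO replicate 3, HSC-PCK1-KO replicate 4 or Control replicate 1 was left out. The lowest log2 fold change was -0.10 for Cpt1a and the highest 0.40 for Acot1. In 29 of the 33 genes the difference between the group means was smaller than the larger of the group SDs. The exceptions were Acadm, Etfa, Acaa1a and Bdh1.

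The data set a limit on how large a difference could have been present. The 95% interval of the fold change lay inside 1.5-fold in both directions for 20 members (60.6%), against 66.8% of all genes tested. It lay inside 2-fold in both directions for 29 members (87.9%), against 86.7% of all genes tested, the exceptions being Acot3, Cyp4a10, Cyp4a14 and Vnn1. Precision differed by role. Among the 23 enzymes of the shuttle, the beta-oxidation spirals, the electron transfer flavoprotein and the ketone body step, 20 intervals lay inside 1.5-fold and all 23 inside 2-fold, with a median log2 fold change of 0.058. None of the 10 thioesterases, omega-hydroxylases and other PPAR-alpha targets had an interval inside 1.5-fold.

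**Figure D1:**
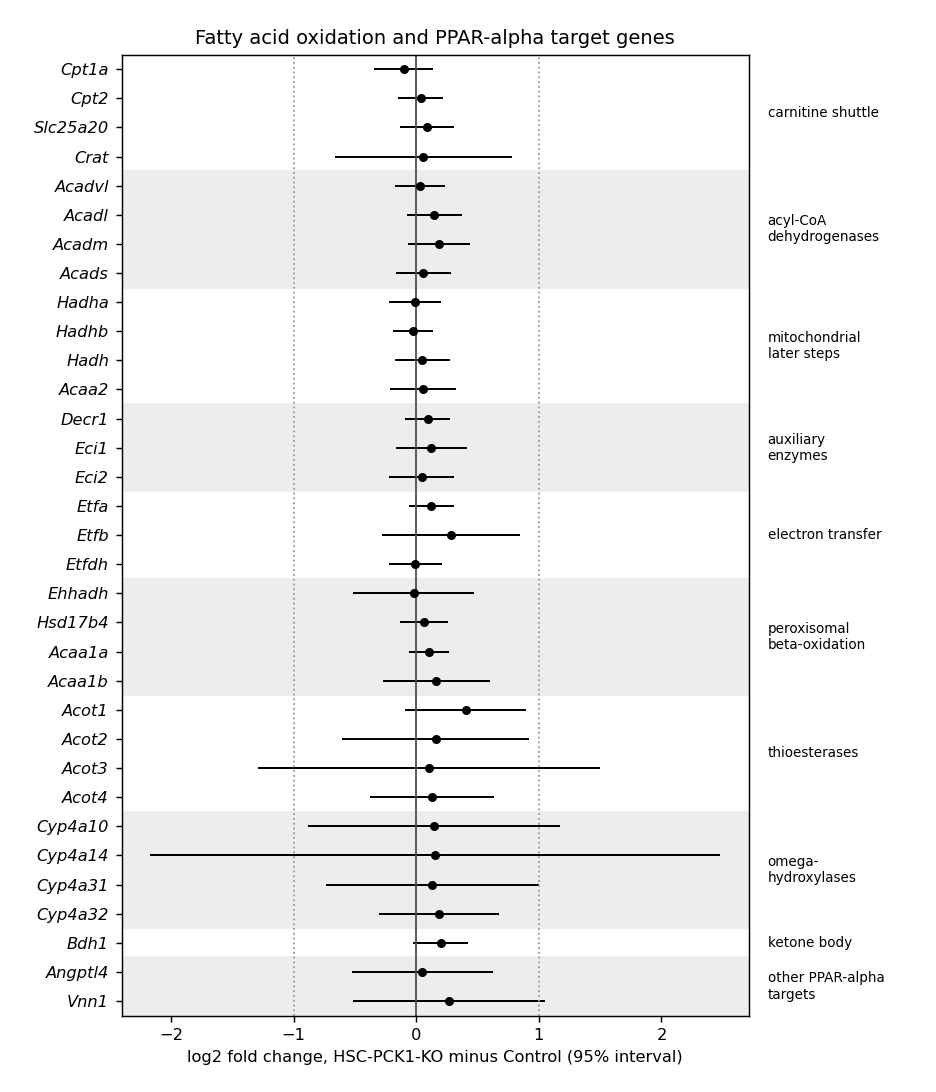
Log2 fold change (HSC-PCK1-KO minus Control, n = 4 each) of the 33 genes with 95% intervals from the edgeR fit, grouped by role, with dotted lines at 2-fold in either direction. Every interval crosses 0, and those of Cyp4a14 and Acot3 are the widest.

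The carnitine shuttle brings long-chain fatty acids into mitochondria. Its first enzyme, Cpt1a (ENSMUSG00000024900.6), which forms the carnitine ester and sets the rate of entry, had 502, 637, 464 and 543 CPM in HSC-PCK1-KO livers and 578, 532, 575 and 617.5 CPM in Control livers. Both the highest and the lowest libraries were HSC-PCK1-KO livers. The means were 536 ± 74.3 CPM in HSC-PCK1-KO livers and 576 ± 34.8 CPM in Control (SD, n = 4 each), a log2 fold change of -0.10 (SE 0.11, edgeR adjusted p = 0.9998). The carrier Slc25a20, which swaps carnitine esters for carnitine across the inner membrane, averaged 168 ± 19.1 CPM in HSC-PCK1-KO livers and 158 ± 13.4 CPM in Control livers. Cpt2, which rebuilds the acyl-CoA inside, averaged 148 ± 12.8 CPM in HSC-PCK1-KO livers and 144 ± 8.51 CPM in Control livers. Crat, which acts on short chains and acetyl groups, spread most in this role, from 54.1 to 103 CPM in HSC-PCK1-KO livers and from 40.9 to 103 CPM in Control livers.

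The 4 acyl-CoA dehydrogenases catalyse the first step of each mitochondrial round, each for its own range of chain lengths. All 4 log2 fold changes were positive and small, from 0.030 for Acadvl to 0.18 for Acadm. Without Control replicate 4, Acadvl was at -0.028 and Acads at -0.009. Acadm, the medium-chain enzyme, had 479, 421, 393 and 366 CPM in HSC-PCK1-KO livers and 404.5, 317, 341 and 399 CPM in Control livers. The 2 highest values were HSC-PCK1-KO livers and the 2 lowest were Control livers, with overlap between. Its log2 fold change was 0.18 (SE 0.11, edgeR unadjusted p = 0.14), with an interval from 0.952-fold to 1.35-fold. Acadvl, the very long-chain enzyme and the one with the highest mean CPM, had 447, 451, 446.5 and 390 CPM in HSC-PCK1-KO livers and 454.5, 444, 430 and 370 CPM in Control livers. Its exons overlap those of Dvl2 on the opposite strand over 42.9% of its exon bases, and Dvl2 stood at 12.8 CPM in both groups. The long-chain enzyme Acadl averaged 211 ± 18.2 CPM in HSC-PCK1-KO livers and 190 ± 22.5 CPM in Control livers. Acads, for short chains, averaged 175 ± 17.6 CPM in HSC-PCK1-KO livers and 168 ± 16.8 CPM in Control livers.

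The hydration, second oxidation and thiolysis steps were the closest to 0, with a median log2 fold change of 0.020 over 4 genes, 2 positive and 2 negative. Hadha and Hadhb encode the subunits of the mitochondrial trifunctional protein, which carries out these steps on long chains. Their genes lie head to head on mouse chromosome 5, with annotated starts 272 bases apart in the RefSeq table for GRCm38.p6. Of the 27025 genes with a promoter in that table, 2551 (9.44%) start head to head with another gene within 300 bases. Hadha and Hadhb are the only such pair within the set. The stretch between them that lies in no annotated exon is shown because both subunits are read outward from it, and no letters in it are marked by capitals.
Hadha and Hadhb, chr5:30155163-30155247, plus strand: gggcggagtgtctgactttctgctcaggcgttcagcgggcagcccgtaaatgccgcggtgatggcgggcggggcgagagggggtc
Hadha had a mean of 325 ± 35.2 CPM in HSC-PCK1-KO livers and 328 ± 18 CPM in Control livers, and Hadhb 202 ± 11.4 CPM in HSC-PCK1-KO livers and 205 ± 9.03 CPM in Control livers (SD, n = 4 each). The ratio of Hadha to Hadhb counts ranged from 1.43 to 1.71 in HSC-PCK1-KO livers and from 1.52 to 1.73 in Control livers, so the pair kept within 1.21-fold over the 8 libraries. Hadhb also had the second smallest spread of the set. A pseudogene, Gm13910, shares 14.8% of the 100-base windows of Hadhb and was at 1.98 CPM in HSC-PCK1-KO livers and 2.19 CPM in Control livers.

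Hadh, the dehydrogenase for shorter chains, had 534, 446, 456 and 414 CPM in HSC-PCK1-KO livers and 486, 397, 456 and 447 CPM in Control livers. Acaa2, the mitochondrial thiolase and the highest of this role, had 1047, 908.5, 939 and 721 CPM in HSC-PCK1-KO livers and 882, 906, 932 and 765 CPM in Control livers. For both genes the highest library was HSC-PCK1-KO replicate 1, and the groups overlapped over most of their range. The log2 fold changes were 0.050 (SE 0.10) for Hadh and 0.053 (SE 0.12) for Acaa2.

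Unsaturated fatty acids need auxiliary enzymes that move or reduce double bonds. Decr1, the dienoyl-CoA reductase, had 249.9, 223, 224.5 and 230 CPM in HSC-PCK1-KO livers and 240.5, 200.4, 223 and 205 CPM in Control livers. The 4 HSC-PCK1-KO values lay within the upper part of the Control range or just above it, at a log2 fold change of 0.093 (SE 0.083, edgeR unadjusted p = 0.29). The isomerases Eci1 and Eci2 averaged 117 ± 14.1 and 181 ± 34.3 CPM in HSC-PCK1-KO livers and 107 ± 19.0 and 176 ± 6.17 CPM in Control livers.

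Electrons from the acyl-CoA dehydrogenases pass through the electron transfer flavoprotein, made of Etfa and Etfb, to its oxidoreductase Etfdh and on to ubiquinone. Etfa had 315, 308, 277 and 272 CPM in HSC-PCK1-KO livers and 285, 264, 277 and 249.7 CPM in Control livers. Its 2 highest values were HSC-PCK1-KO livers and the log2 fold change was 0.12 (SE 0.083, edgeR unadjusted p = 0.168). Etfdh had 326, 364, 288.5 and 296.5 CPM in HSC-PCK1-KO livers and 353, 323.5, 302 and 303 CPM in Control livers, a log2 fold change of -0.0072 (SE 0.097). The ratio of Etfa to Etfdh ranged from 0.847 to 0.966 in HSC-PCK1-KO livers and from 0.809 to 0.919 in Control livers. It kept within 1.19-fold over the 8 libraries, although Etfa lies on chromosome 9 and Etfdh on chromosome 3. So a steady ratio was not particular to the head-to-head Hadha and Hadhb pair.

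Etfb, the partner subunit of Etfa, was counted far below it and is described because its low level stood out after the values were seen. It had 7.22, 3.52, 4.78 and 6.75 CPM in HSC-PCK1-KO livers and 5.38, 4.91, 5.05 and 2.97 CPM in Control livers. Per kilobase of its principal transcript this was 6.23 CPM in HSC-PCK1-KO livers and 5.12 CPM in Control livers, while Etfa stood at 211 and 193 CPM per kilobase in the same groups. In the annotation used here 53.0% of the exon bases of Etfb lie in exons of a second gene on the same strand, Gm45233, which was listed at 0 in all 8 libraries. Of the 100-base windows of Etfb, 35.8% also occur in Gm45233. How reads that match both genes were counted is not given, so the level of Etfb is uncertain. Whether the overlap accounts for the gap to Etfa was not tested.

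The peroxisomal enzymes had log2 fold changes from -0.023 for Ehhadh to 0.16 for Acaa1b. Acaa1a and Acaa1b are a pair of closely related peroxisomal thiolases. Acaa1a had 215, 215.5, 219 and 197 CPM in HSC-PCK1-KO livers and 185, 205, 206 and 194 CPM in Control livers. In HSC-PCK1-KO livers 3 values lay above every Control value, and HSC-PCK1-KO replicate 4 lay among them, at a log2 fold change of 0.10 (SE 0.073, edgeR unadjusted p = 0.19). Acaa1b, the highest of the 33 genes, had 1695, 1780, 1357 and 1139 CPM in HSC-PCK1-KO livers and 1805, 996, 1230 and 1304 CPM in Control livers. Here the highest and the lowest library were both Control livers, and the log2 fold change was 0.16 (SE 0.20). The ratio of Acaa1b to Acaa1a ranged from 5.77 to 8.26 in HSC-PCK1-KO livers and from 4.87 to 9.77 in Control livers. Of the 100-base windows of Acaa1b, 19.3% also occur in Acaa1a, so part of their reads could be split between them.

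Ehhadh, the peroxisomal bifunctional enzyme and a standard PPAR-alpha target, ranged from 238 to 389.6 CPM in HSC-PCK1-KO livers and from 241 to 438 CPM in Control livers. Hsd17b4, the other bifunctional enzyme, kept between 537 and 639.6 CPM in HSC-PCK1-KO livers and between 529 and 608 CPM in Control livers.

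**Figure D2:**
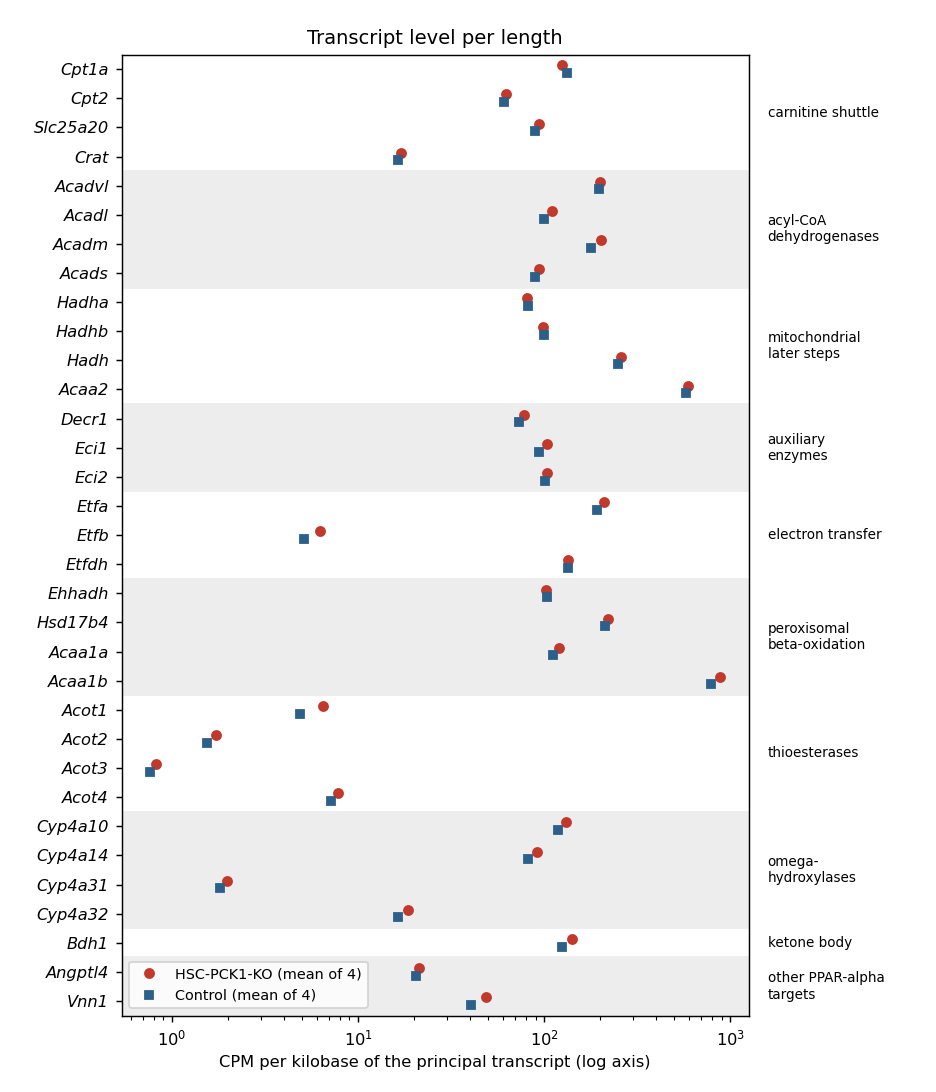
Mean CPM per kilobase of the principal transcript (log axis) of each of the 33 genes by role, in HSC-PCK1-KO livers (circles) and Control livers (squares), n = 4 each. Acaa1b and Acaa2 are the highest and Acot3 the lowest, and the 2 groups lie close together in every gene.

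Levels per length differed widely between members. Acaa1b had 884 CPM per kilobase in HSC-PCK1-KO and 790 CPM per kilobase in Control livers, and Acaa2 had 596 and 575 CPM per kilobase in the same groups. Next came Hadh with 258 CPM per kilobase in HSC-PCK1-KO and 250 CPM per kilobase in Control livers, and Hsd17b4, Etfa, Acadm and Acadvl followed with 200 to 221 CPM per kilobase in HSC-PCK1-KO and 179 to 212 CPM per kilobase in Control livers. Neighbours among these 4 in the order of levels overlapped within 1 SD in either group. At the low end, Acot3 had 0.826 CPM per kilobase in HSC-PCK1-KO and 0.765 CPM per kilobase in Control livers, Acot2 1.73 and 1.54, and Cyp4a31 1.99 and 1.81. With lengths taken over all annotated exons in place of the principal transcript, Acaa1b at 720 and Acaa2 at 585 CPM per kilobase over the 8 libraries stayed first and second. The order below them changed with the lengths: Hsd17b4 stood at 171, Acadvl at 160, Etfa at 153, Cyp4a10 at 125 and Bdh1 at 107, while Acadm was at 99.7 and Hadh at 91.3 CPM per kilobase, against 191 and 254 with the principal transcript.

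The acyl-CoA thioesterases release free fatty acids from acyl-CoA, Acot1 in the cytosol, Acot2 in mitochondria and Acot3 and Acot4 in peroxisomes. All 4 log2 fold changes were positive, with a median of 0.14, and none passed. With 1 library left out, Acot2 ranged from -0.105 to 0.43 and Acot3 from -0.255 to 0.465, and Acot3 was -0.045 in voom, so the sign of both depended on single libraries. Acot1 (ENSMUSG00000072949.7) had 16.6, 19.7, 12.8 and 9.84 CPM in HSC-PCK1-KO livers and 14.4, 9.43, 9.87 and 10.9 CPM in Control livers. Of the HSC-PCK1-KO livers, 2 lay above all Control livers and 1 lay near the bottom of the Control range. Its log2 fold change of 0.40 (SE 0.22, edgeR unadjusted p = 0.0989, adjusted p = 0.9998) was the highest of the 33, with an interval from 0.938-fold to 1.86-fold.

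Acot2 had 3.66, 5.69, 2.87 and 2.95 CPM in HSC-PCK1-KO livers and 5.14, 1.70, 2.83 and 3.89 CPM in Control livers. Acot3 had 4.71, 3.40, 0.686 and 2.54 CPM in HSC-PCK1-KO livers and 4.38, 1.01, 1.73 and 3.37 CPM in Control livers, a range of 6.88-fold. Acot4 had 56.3, 55.3, 30.8 and 51.1 CPM in HSC-PCK1-KO livers and 55.2, 32.3, 39.6 and 49.6 CPM in Control livers. In all 3 genes the groups covered nearly the same range, and the log2 fold changes were 0.16 (SE 0.34), 0.10 (SE 0.60) and 0.13 (SE 0.22). The 4 genes stand on chromosome 12, and Acot2 shares 17.1% of its 100-base windows with Acot1, so reads could be split between these copies. Counts behind the lowest values were small, 33 to 216 per library for Acot3 and 72 to 283 for Acot2.

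The omega-hydroxylases of the Cyp4a family oxidise the far end of fatty acids and are among the strongest PPAR-alpha targets in rodent liver. All 4 log2 fold changes were positive, with a median of 0.15, and the interval of none of them lay inside 1.5-fold. Leaving out 1 library turned the sign of 3 of them, to -0.12 for Cyp4a10, -0.217 for Cyp4a14 and -0.173 for Cyp4a31 at the lowest. Cyp4a14 (ENSMUSG00000028715.3) had 375, 385, 62.7 and 93.5 CPM in HSC-PCK1-KO livers and 542, 29.1, 80.6 and 171 CPM in Control livers. The highest and the lowest library were both Control livers, 18.7-fold apart, and both groups held livers under 100 CPM and livers over 350 CPM. The log2 fold change was 0.15 with an SE of 0.98 (edgeR adjusted p = 0.9998), and the interval ran from 0.222-fold to 5.58-fold. Without Control replicate 1 it was 1.29, and without HSC-PCK1-KO replicate 2 it was -0.22.

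Cyp4a10 had 415, 285, 232 and 176 CPM in HSC-PCK1-KO livers and 435, 127, 147 and 292.5 CPM in Control livers. Cyp4a31 had 5.81, 7.80, 3.18 and 3.15 CPM in HSC-PCK1-KO livers and 5.72, 2.41, 3.68 and 6.38 CPM in Control livers. Cyp4a32 had 22.0, 38.2, 20.1 and 33.5 CPM in HSC-PCK1-KO livers and 26.2, 19.6, 27.2 and 27.1 CPM in Control livers. Control replicate 2 had the lowest value of all 4 genes, while the highest library differed among them. Cyp4a14 varied more than Cyp4a10, and the ratio of its CPM to that of Cyp4a10 was 0.904, 1.35, 0.271 and 0.531 in HSC-PCK1-KO livers and 1.25, 0.229, 0.548 and 0.584 in Control livers. The 4 genes stand on chromosome 4, and Cyp4a32 shares 12.5% of its 100-base windows with Cyp4a10, while Cyp4a14 shares none with any other gene.

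**Figure D3:**
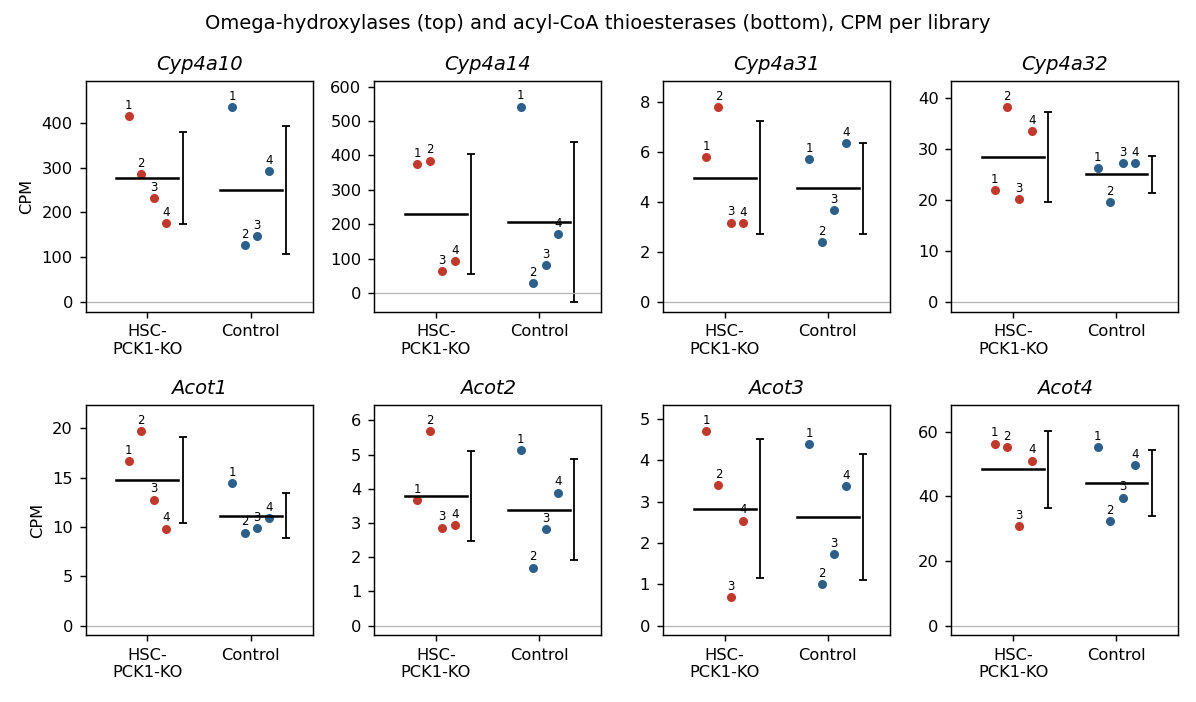
CPM of the 4 Cyp4a and 4 Acot genes in each library (linear axes, points numbered by replicate), HSC-PCK1-KO left of Control, with a line at the group mean and a bar for mean ± SD (n = 4). HSC-PCK1-KO replicates 1 and 2 and Control replicate 1 sit high and Control replicate 2 low in most panels, and the groups overlap in all 8.

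Bdh1, the mitochondrial enzyme that interconverts the ketone bodies acetoacetate and beta-hydroxybutyrate, had the smallest unadjusted p of the 33 genes. It had 452, 518, 409 and 391 CPM in HSC-PCK1-KO livers and 404, 359.7, 384 and 396 CPM in Control livers. Of the HSC-PCK1-KO livers, 3 lay above all Control livers and the other within their range. The means were 443 ± 56.4 CPM in HSC-PCK1-KO livers and 386 ± 19.3 CPM in Control (SD, n = 4 each), a log2 fold change of 0.20 (SE 0.10, edgeR unadjusted p = 0.078, adjusted p = 0.9998), and it ranked 624th by p among all genes tested.

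Vnn1, a membrane pantetheinase, and Angptl4, a secreted inhibitor of lipoprotein lipase, are PPAR-alpha targets outside the oxidation pathway. Vnn1 had 134, 169, 84.8 and 81.5 CPM in HSC-PCK1-KO livers and 134, 55.3, 81.0 and 119.5 CPM in Control livers, a log2 fold change of 0.27 (SE 0.34), which was 0.041 without HSC-PCK1-KO replicate 2 and 0.46 without Control replicate 1. Angptl4 had 49.2, 102, 70.4 and 58.9 CPM in HSC-PCK1-KO livers and 47.8, 65.7, 69.5 and 87.9 CPM in Control livers, a log2 fold change of 0.050 (SE 0.25). In Vnn1 the lowest library was Control replicate 2, as in the Cyp4a genes, whereas in Angptl4 it was Control replicate 1.

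The spread between livers of the same genotype was unequal among the members. The within-group SD of log2 CPM had a median of 0.183 over the 33 genes and 0.154 over the 12563 genes with a mean of at least 1 CPM. Of the members, 9 lay above the 90th percentile of those genes: Crat, Etfb, Acot2, Acot3, Cyp4a10, Cyp4a14, Cyp4a31, Angptl4 and Vnn1. The percentile takes no account of level. Acot3, Acot2, Cyp4a31 and Etfb averaged only 2.73, 3.59, 4.765 and 5.07 CPM over all libraries. Cyp4a14, with an SD of 1.58, lay at the 99.8th percentile and Acot3, with 1.07, at the 99.1st. At the other end, Acaa1a lay at the 6.75th percentile and Hadhb at the 7.34th.

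**Figure D4:**
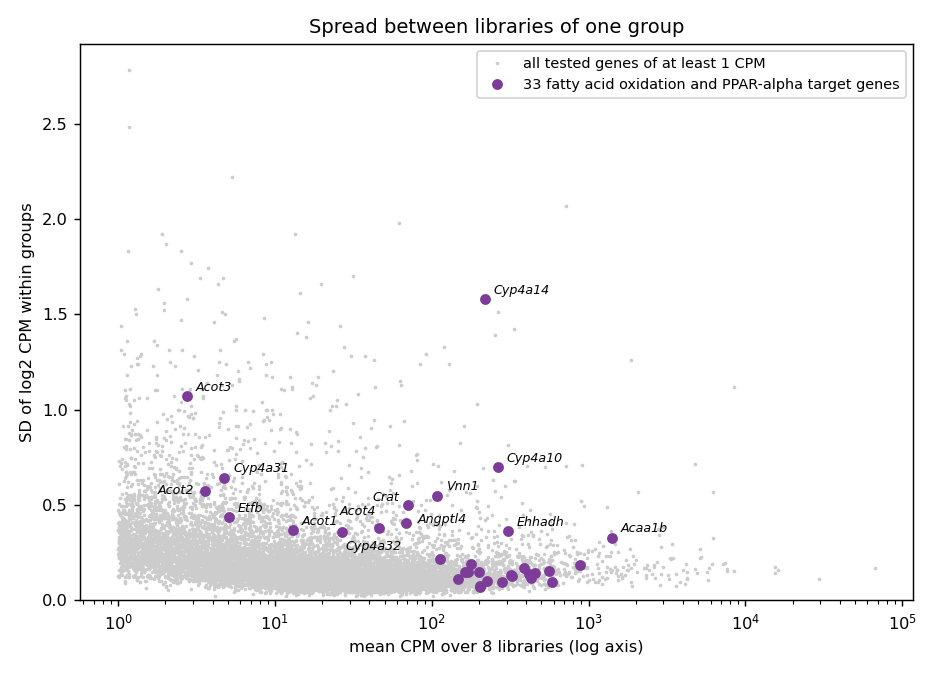
Within-group SD of log2 CPM against mean CPM over 8 libraries (log axis) for the 33 genes (large points) and for the 12563 tested genes of at least 1 CPM (small points). Cyp4a14, Acot3 and Cyp4a10 lie high above most genes of like level.

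The same livers were high in many members, in both genotypes. This pattern was noticed after the values were seen and is a description. HSC-PCK1-KO replicates 1 and 2 and Control replicate 1, the 3 libraries with the highest Cyp4a14, were also the 3 highest in 15 other members, 16 of 33 in all (48.5%), while those 3 were the highest in 2.2% of all genes tested and in 3.05% of those with at least 10 CPM. Among the 16 were Acadl, Acadm, Acadvl, Slc25a20, Etfa, Ehhadh, Acaa1b, Hsd17b4 and Vnn1. Because the 3 libraries were picked from the values of a member, the shares are no test of the set. Control replicate 2 was the lowest library in 15 members, for which no share of all genes is given here. The median deviation from a gene's mean log2 CPM was 0.15, 0.20, -0.029 and -0.15 in HSC-PCK1-KO replicates 1 to 4 and 0.10, -0.16, -0.078 and -0.056 in Control replicates 1 to 4. The summed level of the 33 genes was 9984, 10120, 8370 and 7684 CPM in HSC-PCK1-KO livers and 10100, 7555, 8177 and 8357 CPM in Control livers. The 4 Cyp4a genes summed to 818, 716, 318 and 306 CPM in HSC-PCK1-KO livers and to 1010, 178, 259 and 497 CPM in Control livers.

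**Figure D5:**
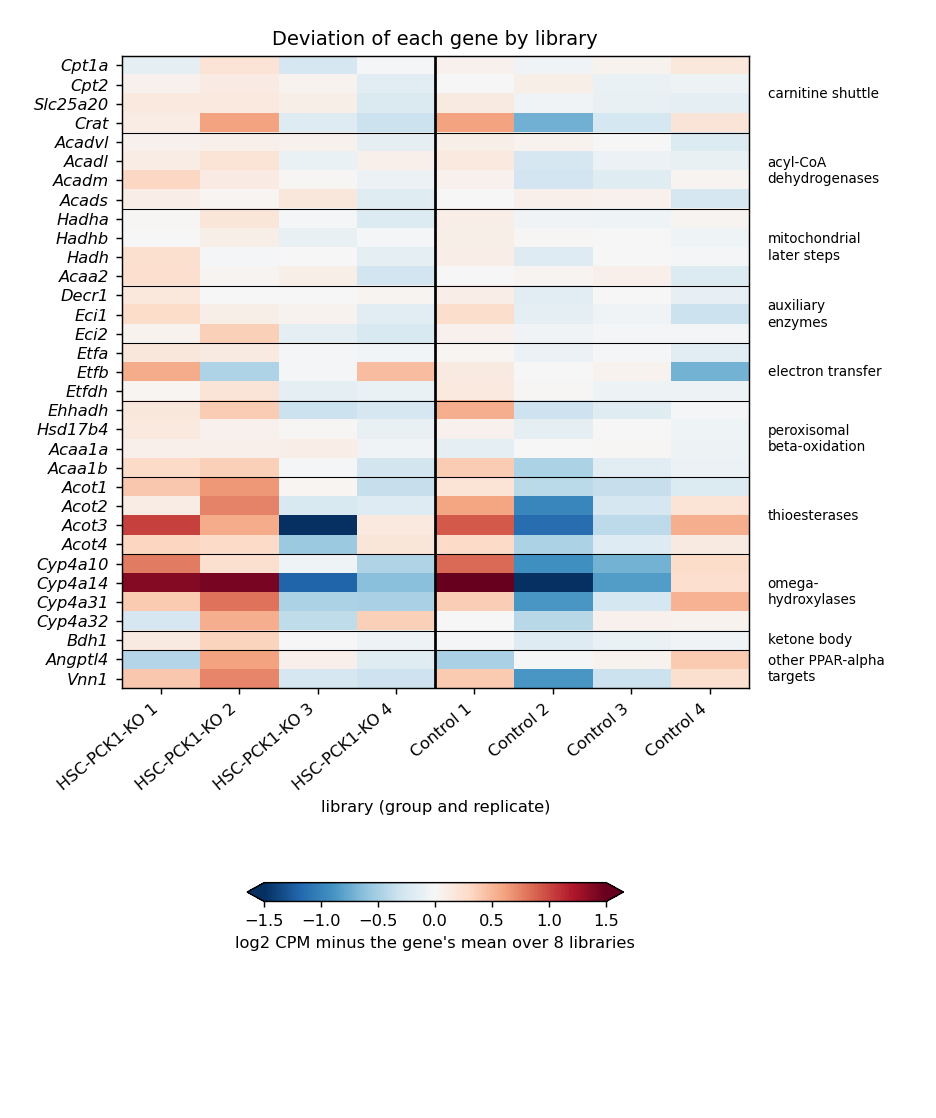
Deviation of log2 CPM from each gene's mean over the 8 libraries, for the 33 genes by role (rows) and the libraries (columns, HSC-PCK1-KO left of Control), with the colour scale cut at 1.5 in either direction. HSC-PCK1-KO replicates 1 and 2 and Control replicate 1 are mostly above the mean and Control replicate 2 and HSC-PCK1-KO replicate 4 mostly below it.

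Other gene lists differed between the same livers. The summed level of 10 lipogenic genes of the fed state was 11500, 13050, 5550 and 7853 CPM in HSC-PCK1-KO livers and 25710, 4676, 10540 and 7000 CPM in Control livers, highest in Control replicate 1 and lowest in Control replicate 2. Control replicate 1 lay far above every other liver, and the sums of the other Control livers lay within or below the HSC-PCK1-KO range. All 10 genes had log2 fold changes below 0, with -0.44 as their median, while 48.2% of all genes tested lay above 0. How that median moves when a library is left out is not given here. Of the 10, 1 gene, Acly, stood at an unadjusted p under 0.05, against 2.36% of all genes tested. Its edgeR adjusted p was 0.9998. Acly, which makes acetyl-CoA for fat synthesis, averaged 285 ± 56.8 CPM in HSC-PCK1-KO livers and 437 ± 143 CPM in Control livers (edgeR unadjusted p = 0.0255), and Pnpla3, a lipid-remodelling enzyme, 1.02 ± 0.403 and 3.61 ± 4.15 CPM in the same groups. The 10 periportal hepatocyte markers, Pck1 among them, summed to 7981, 7795, 8841 and 9261 CPM in HSC-PCK1-KO livers. In Control livers they summed to 7441, 12200, 9070 and 7883 CPM. The highest sum was in Control replicate 2, where Pck1 itself gave 2012 CPM. The 10 pericentral markers summed to 14690, 12760, 13630 and 11870 CPM in HSC-PCK1-KO livers. In Control livers their sums were 10580, 14900, 11930 and 11480 CPM, so Control replicate 2 was the highest in this list too. The part of feeding state or of liver zone in the members' values was not tested. The 10 fasting genes summed to 4050, 4553, 4127 and 3739 CPM in HSC-PCK1-KO livers and to 4269, 4489, 3917 and 4103 CPM in Control livers, with 5 positive and 5 negative log2 fold changes. Of these, Lpin1, a phosphatidate phosphatase that also coactivates PPAR-alpha, averaged 33.9 ± 8.14 CPM in HSC-PCK1-KO livers and 52.9 ± 15.9 CPM in Control livers. Its groups did not overlap (edgeR unadjusted p = 0.0274, adjusted p = 0.9998). Among all genes tested, 1.53% did not overlap and 2.36% had an unadjusted p under 0.05. G6pc, the glucose-6-phosphatase of gluconeogenesis, averaged 466 ± 120 CPM in HSC-PCK1-KO livers and 676 ± 242 CPM in Control livers.

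The receptor itself and its partners were examined next. Ppara had 93.6, 102, 70.4 and 89.7 CPM in HSC-PCK1-KO livers and 104, 104, 84.0 and 101 CPM in Control livers, a log2 fold change of -0.15 (SE 0.12, edgeR adjusted p = 0.9998). Of 14 genes of PPAR-alpha and its cofactors, 6 lay above 0 and 8 below it in log2 fold change (median -0.0056), none at an unadjusted p under 0.05. With 1 library left out, that median ranged from -0.06 to 0.033. Ppargc1b, a coactivator, averaged 1.76 ± 0.437 CPM in HSC-PCK1-KO livers and 2.20 ± 0.383 CPM in Control livers.

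Of 27 further PPAR-alpha targets, 26 were tested and Acot5 was listed at 0. Of the 26, 18 were positive and 8 negative, with a median of 0.084 and none at an unadjusted p under 0.05. Leaving out HSC-PCK1-KO replicate 2 gave a median of -0.028. Leaving out Control replicate 1 gave 0.185, Control replicate 2 gave -0.015 and Control replicate 3 gave -0.006. Aldh3a2, a fatty aldehyde dehydrogenase, averaged 704 ± 137 CPM in HSC-PCK1-KO livers and 562 ± 123 CPM in Control livers (edgeR unadjusted p = 0.0926). Slc22a5, the carnitine importer, averaged 25.5 ± 3.62 CPM in HSC-PCK1-KO livers and 22.5 ± 2.94 CPM in Control livers, and Pdk4, a kinase that holds back pyruvate oxidation, 14.3 ± 6.29 and 12.9 ± 8.13 CPM in the same groups.

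The other ketone body genes showed 5 positive and 2 negative log2 fold changes among 7 tested genes of 8, with a median of 0.042. Slc16a6, a transporter known from zebrafish liver for exporting ketone bodies, had 9.29, 8.04, 8.39 and 9.39 CPM in HSC-PCK1-KO livers and 10.8, 12.3, 8.69 and 11.3 CPM in Control livers. It was the 1 gene of the list at an unadjusted p under 0.05 (0.0276, edgeR), against 2.36% of all genes tested. Its log2 fold change was -0.29, its edgeR adjusted p was 0.9998, and its groups overlapped.

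Of 16 other peroxisomal oxidation genes, 11 lay above 0 and 5 below it in log2 fold change (median 0.034). Scp2, a sterol carrier with thiolase activity, averaged 3949 ± 199.7 CPM in HSC-PCK1-KO livers and 3714 ± 281 CPM in Control livers, and Acox3, a peroxisomal acyl-CoA oxidase, 36.3 ± 2.61 and 39.6 ± 4.09 CPM in the same groups.

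Of 18 other mitochondrial oxidation genes, 9 were positive and 9 negative, with a median of 0.0017, which was -0.047 without Control replicate 4 and 0.058 without Control replicate 2. Mcee, an epimerase of propionate breakdown, averaged 37.0 ± 4.78 CPM in HSC-PCK1-KO livers and 33.2 ± 1.93 CPM in Control livers. Etfbkmt, the methyltransferase that modifies the Etfb subunit, had 22.5, 25.6, 20.9 and 19.8 CPM in HSC-PCK1-KO livers and 30.8, 33.8, 37.7 and 28.3 CPM in Control livers. Every HSC-PCK1-KO liver lay below every Control liver, as 1 of the 18 genes and in 1.53% of all genes tested in either direction. The log2 fold change was -0.56 (SE 0.11, edgeR unadjusted p = 0.000361), and the adjusted p was 0.9998.

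Upstream sequence was searched for the PPAR-alpha response element, a direct repeat in which AGGTCA is followed by any 1 base and by AGGTCA again. The 250 bases before the annotated start were read on both strands for the 24 members in the RefSeq table for GRCm38.p6. No member held the motif exactly or with 1 mismatch, and of all 27025 genes 11 (0.0407%) and 153 (0.566%) did. With up to 2 mismatches over the 12 fixed letters, Etfa and Acot4 held one, 2 of 24 members (8.33%), against 1005 of all genes (3.72%). Both matches are shown because they are the only ones among the members, written in the direction of the gene with the 13 matching bases in capitals, which lie on the opposite strand to the motif as spelled.
Etfa, chr9:55512293-55512335, minus strand: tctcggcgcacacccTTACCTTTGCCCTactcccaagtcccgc
Acot4, chr12:84038351-84038378, plus strand: ctcagccccgaagcaTGACCTTTGGCCG
The match ends 65 bases before the start of Etfa and 1 base before that of Acot4. A match of this kind is a description of letters and says nothing of binding, and known elements of these genes can lie outside the window. Crat, Acaa2, Decr1, Hsd17b4, Cyp4a10, Cyp4a14, Cyp4a31, Angptl4 and Vnn1 were not searched.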

How the data were processed

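Whole liver RNA of 8 samples from male mice on CDHFD was used, 4 HSC-PCK1-KO and 4 Control. Per the labels' protocols, RNA was captured with oligo(dT) beads and libraries keep strand. The authors deposited raw counts, a whole number per gene and library, which were not normalized. The submitters' processing notes name the build GRCm39 and R 4.3.2. The aligner, counter, annotation, strand setting and handling of reads matching several genes were not given in the sources used here. Symbols came by identifier from GENCODE M21 (GRCm38), which named 52029 of 56953 identifiers. Transcript lengths and exon overlaps came from it too. Promoter sequences came from RefSeq.

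In R 4.3.3, edgeR 4.0.16 (TMM factors, filterByExpr, robust quasi-likelihood F-test, genotype only) was fitted to the counts of all 8 libraries. It kept 15669 of 28811 genes with any count. Benjamini-Hochberg adjustment ran over all genes tested, at a threshold of 0.05. CPM are counts over library total and TMM factor, log2 CPM used a prior count of 2, and errors are SDs over 4 libraries. Totals of 44695439 to 49477255 counts gave a median SE of 0.132 for a log2 fold change. Library pairs within groups differed far beyond counting noise (chi-square per degree of freedom 44.4 to 168). The calculations were tested on simulated data.

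The members and all gene lists were chosen with earlier results of these data known. Values per library are given for all Acot and Cyp4a genes and, in each other role, for the member with the smallest p and that with the highest mean CPM. From each other pathway or feeding-state list, the 2 genes with the smallest p and at least 1 CPM were named, plus Ppara and Pdk4. Some genes that this choice took are not reported here. Angptl4, Etfb and ranges of other genes were added after their values were seen. Alternatives were RLE factors, no filter, 1 CPM or more in at least 4 libraries, limma 3.58.1 (voom with sample weights), DESeq2 1.42.0, a replicate block, an adjusted p of 0.1, and leaving out each library.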

Additional observations from a re-analysis of the deposited data

Results flagged for a closer look

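In 4 of 66 groups of 4 values (33 genes in 2 groups), 1 library stood apart from the other 3 by Dixon's criterion at the 95% level. Chance flags about 5% of groups, here 3.3, if values are normal and groups independent. The 33 genes were read in the same libraries, so this number cannot decide whether the flags are chance. In HSC-PCK1-KO replicate 4, Slc25a20 was at 139.7 CPM (the other 3 HSC-PCK1-KO livers at 173 to 179.7), Acadvl at 390.4 CPM (the others at 446.5 to 451.4) and Acaa1a at 197.3 CPM (the others at 215.3 to 218.9). In Control replicate 2, Cyp4a32 was at 19.6 CPM, and the other 3 Control livers were at 26.2 to 27.2 CPM. HSC-PCK1-KO replicate 4 also had the lowest summed level of the 33 genes in its group, at 7684 CPM, and Control replicate 2 the lowest in its group, at 7555 CPM.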

How the results depend on the processing

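No member passed an adjusted p of 0.05 under any alternative run, nor at 0.1. Over all genes, DESeq2 called 6 (none a member) and edgeR called 1 without Control replicate 1, while RLE factors, no filter, the 1 CPM filter and voom called 0, with 370, 686, 279 and 384 genes at an unadjusted p under 0.05. At an unadjusted p under 0.05 the members numbered 0 to 2 when 1 library was left out. The 2 were Acot1 and Bdh1 without HSC-PCK1-KO replicate 4, and Acadl and Acot1 without Control replicate 1. These were the highest counts among 8 such fits. The share of all genes tested at that p in those fits is not given here, so the counts are a description only. The median log2 fold change of the members was 0.046 to 0.193 with 1 library left out and 0.095 to 0.11 otherwise, and the number of positive members was 21 to 31 and 28 to 30. The replicate numbers did not pair the libraries (correlations of same-numbered deviations -0.033, -0.329, -0.059 and 0.058). With the replicate block, 0 genes passed in edgeR (311 at an unadjusted p under 0.05) and the median of the members was 0.095. With voom the sign turned for Hadha (0.016), Etfdh (0.014), Ehhadh (0.014) and Acot3 (-0.045); the cause was not tested. Leaving out 1 library turned the sign in 16 members, with these ranges: Crat -0.162 to 0.312, Acadvl -0.028 to 0.078, Acads -0.009 to 0.121, Hadha -0.077 to 0.05, Hadhb -0.06 to 0.006, Hadh -0.028 to 0.1, Acaa2 -0.027 to 0.148, Eci2 -0.088 to 0.121, Etfdh -0.077 to 0.042, Ehhadh -0.165 to 0.193, Acot2 -0.105 to 0.43, Acot3 -0.255 to 0.465, Cyp4a10 -0.12 to 0.551, Cyp4a14 -0.217 to 1.291, Cyp4a31 -0.173 to 0.338 and Angptl4 -0.187 to 0.203. The other 17 members kept their sign under every alternative run. With 4 libraries a group, the intervals of all Acot and Cyp4a genes, and of Crat, Etfb, Acaa1b, Angptl4 and Vnn1, reached past 1.5-fold. Differences of that size were not bounded in these genes.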
